A study of Mus musculus with 18 samples.

Results

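The 9 genes described here encode receptor chains, a kinase and transcription factors of interferon signaling and interferon induction: Ifnar1, Ifnar2, Jak1, Stat2, Stat3, Irf9, Irf1, Irf3 and Irf7. They were chosen by gene name from the 55450 genes of the count and FPKM table, and all 9 were among the 21161 genes with enough counts to be tested. The samples were mouse embryonic fibroblasts (MEF) from a commercial cell collection, transfected with 1 pmol/ml of a plasmid and sequenced as 18 poly(A) RNA libraries in 6 groups of 3. The plasmid was the empty pcDNA3 vector, Col1a1-miR-29b, in which the collagen promoter Col1a1 drives the microRNA miR-29b, or CMV-miR-29b, in which the strong viral CMV promoter drives it. Each plasmid was given without TGF-β or with 20 ng/ml TGF-β, a fibrotic stimulus, added 6 h after transfection for 24 h. Both miR-29b vectors also carried genes for fluorescent proteins, and the mass was about 5 µg/ml for Col1a1-miR-29b and 3 µg/ml for CMV-miR-29b. Against the empty vector, promoter, cargo and possibly plasmid mass change together and cannot be told apart. Between both miR-29b vectors the cargo is the same, and promoter and mass cannot be told apart. Nothing in the labels says that the 3 libraries of a group came from separate cultures, although the study speaks of repeated experiments, so the p-values measure the spread between these libraries.

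Type I interferons bind a receptor made of the IFNAR1 and IFNAR2 chains. The kinases JAK1 and TYK2 on its inner side phosphorylate STAT proteins, and STAT2 joins IRF9 in the ISGF3 complex on interferon-stimulated response elements (ISRE) of antiviral genes. IRF3 and IRF7 act upstream, switching on interferon genes after foreign nucleic acid is sensed, while interferon-γ activated sites (GAS) are bound by STAT dimers, IRF1 is induced by interferon-γ, and STAT3 mostly carries signals of the IL-6 family.

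The libraries held between 65898017 and 80332633 counts. Counts of Mir29b-1 were 0 in the 6 empty-vector libraries and 110 to 309 in the CMV-miR-29b libraries. They were 0 to 1 in untreated and 2 to 6 in TGF-β-treated Col1a1-miR-29b libraries, so the untreated ones hardly differed from the empty vector. These are counts of the gene in poly(A) RNA, not of the mature microRNA. The TGF-β label was checked with 5 genes known to respond (such as Acta2 and Smad7). All 5 passed the test as higher with TGF-β under the empty vector and under CMV-miR-29b, and 4 of 5 did under Col1a1-miR-29b. Fibroblast markers were abundant, summing to 566 to 927 FPKM over 10 genes, although Thy1 had at most 8 counts. The summed FPKM of 8 immune cell markers lay between 8.71 and 13.4, most of it from Cd68 and Lyz2, and edgeR called 0 of the 4 tested in the 9 comparisons (at most 1 at an unadjusted p under 0.05), while the defining markers Ptprc and Cd3e had at most 25 and 2 counts. Epithelial and endothelial marker sums reached at most 1.57 and 0.582 FPKM, respectively, and were higher with TGF-β. Under the empty vector the epithelial sum was 0.33 to 0.542 FPKM without and 0.717 to 1.57 with TGF-β, and the endothelial sum 0.18 to 0.271 and 0.466 to 0.581. There edgeR called 1 of 4 epithelial and 1 of 5 endothelial markers higher (3.88% of all genes), and under CMV-miR-29b 1 epithelial marker (3.08%). Of 9 fibroblast markers tested, edgeR called 2 lower in untreated (3.7% of all genes) and 6 in treated (7.63%) Col1a1-miR-29b than in empty-vector cells. DESeq2 called 6 lower in each, and 4 lower in treated CMV-miR-29b cells, where edgeR called 0. Neither tool called any higher in these comparisons. This list includes Col1a1, Col1a2 and Col3a1, and the study reports collagen genes lowered by miR-29b. Whether the type of cells differed was not tested. In both Col1a1-miR-29b groups the letter of one data column matched none of the titles. Its counts entered the group as a library called unlettered here, and its FPKM were not used. In bulk RNA such as this, fewer cells expressing a gene and less RNA per cell cannot be told apart.

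Levels between genes were compared only as FPKM, the authors' value per length and depth, in the 16 libraries whose FPKM column matched a sample. Irf7, the inducible factor for interferon genes, was the highest of the 9, with a mean of 56.5 FPKM (range 39.6 to 74.5). Jak1 followed with 37.2 FPKM (35.3 to 38.9) and Irf1 with 32.1 FPKM (21.5 to 46.9). Stat2 averaged 18.8, Ifnar1 14.8, Irf9 13.0, Ifnar2 9.38, Stat3 7.33 and Irf3 6.13 FPKM. In the 3 untreated empty-vector libraries the ranges of Jak1 (35.6 to 38.9) and Irf1 (21.5 to 39.9) overlapped, as did those of Ifnar1 (12.3 to 14.9) and Irf9 (11.5 to 16.6), so these neighbours could not be ordered, whereas all other neighbours in this order had separate ranges. Tyk2, the other kinase of the receptor and not a member, lay between 4.93 and 5.88 FPKM. The highest library exceeded the lowest by 2.18 times for Irf1, 2.03 times for Irf9 and 1.88 times for Irf7, but by only 1.1 times for Jak1.

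**Figure D1:**
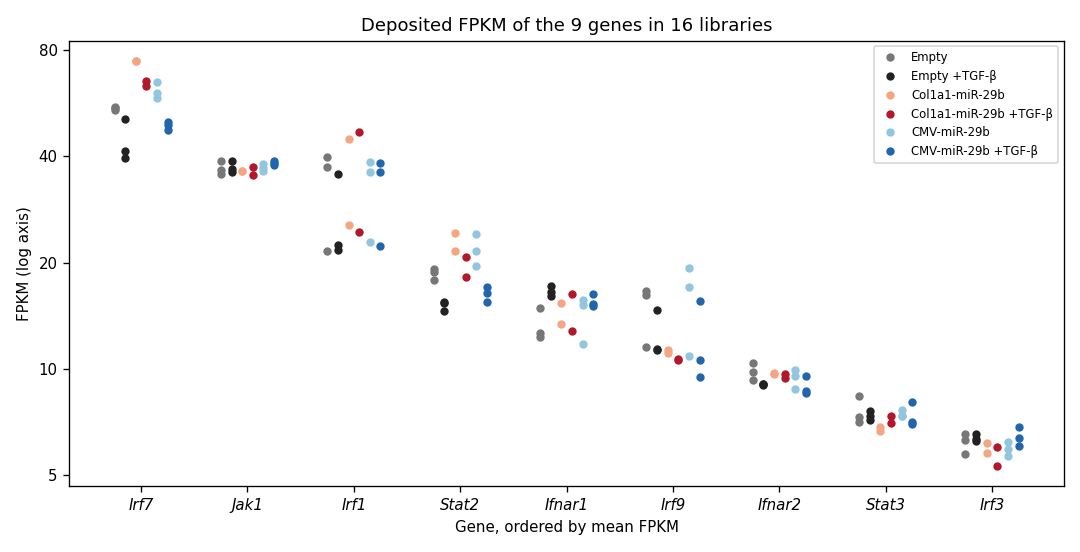
Each point is the deposited FPKM (log axis) of one gene in 1 of 16 libraries, coloured by group, with genes ordered by mean. Irf7 has the highest mean (56.5) and Irf3 the lowest (6.13), while Irf1 and Irf9 fall into an upper and a lower band.

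Of the 9 genes, only Irf7 and Stat2 passed the test in any comparison. Their promoters, and that of Irf1, are shown because ISGF3 and GAS factors are known to act on such regions. The sequences are RefSeq promoters on GRCm38.p6, from 250 bases before to 50 bases after the start, printed 5′ to 3′ on the gene's strand. Capitals mark a match to the ISRE core GAAANNGAAA or the GAS core TTCNNNGAA, both searched on both strands.
Irf7, chr7:141266375-141266674, minus strand: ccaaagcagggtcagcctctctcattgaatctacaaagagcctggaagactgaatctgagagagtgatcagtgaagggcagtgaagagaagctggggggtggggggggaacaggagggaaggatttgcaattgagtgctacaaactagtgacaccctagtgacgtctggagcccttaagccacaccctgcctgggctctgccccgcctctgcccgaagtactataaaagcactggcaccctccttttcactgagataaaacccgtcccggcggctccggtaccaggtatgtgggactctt
Stat2, chr10:128270248-128270547, plus strand: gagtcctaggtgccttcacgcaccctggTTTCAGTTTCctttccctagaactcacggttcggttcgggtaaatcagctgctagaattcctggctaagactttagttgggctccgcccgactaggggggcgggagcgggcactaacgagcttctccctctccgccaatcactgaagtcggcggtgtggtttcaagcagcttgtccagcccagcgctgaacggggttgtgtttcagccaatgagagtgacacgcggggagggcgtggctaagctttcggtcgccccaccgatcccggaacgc
Irf1, chr11:53769764-53770063, plus strand: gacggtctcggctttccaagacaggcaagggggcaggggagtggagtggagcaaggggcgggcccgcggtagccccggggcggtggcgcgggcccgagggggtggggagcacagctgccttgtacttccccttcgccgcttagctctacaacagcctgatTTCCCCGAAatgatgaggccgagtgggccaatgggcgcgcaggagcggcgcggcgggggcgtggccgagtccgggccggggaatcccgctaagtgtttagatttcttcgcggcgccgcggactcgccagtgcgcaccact

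All 9 members had a promoter in the table, and Irf1 and Irf9 had 2 each. The ISRE core was found only in Stat2 among the members, at position -222 from the start and on the opposite strand (TTTCAGTTTC). It was found in 3.44% of all 32851 promoters and in at least 1 promoter of 3.99% of 27025 genes. The GAS core was found in Ifnar1 (position -5), Ifnar2 (-214) and the first promoter of Irf1 (-90). Of all promoters 8.3% held it, and of all genes 9.55%. Within this window, neither set of letters occurs in the Irf7 promoter. These are matches of letters and no binding was measured.

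The plasmids express human miR-29b-1, and the mouse mature form is given here with its seed (bases 2 to 8) in capitals, from Mir29b-1 on chromosome 6 (RefSeq, GRCm38.p6).
mmu-miR-29b-3p, chr6:31063025-31063047, minus strand: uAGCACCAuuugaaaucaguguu

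A match to the seed in the 3′ untranslated region (UTR), TGGTGCT, was searched in the longest GENCODE vM21 UTR of each gene. It was present in 13.1% of 21020 genes and, among the 9 members, in Irf1 alone. The Irf1 match is shown with its flanks, with the match in capitals. It lies beyond the end of the Irf1 gene as the count table gives it (53777323), in a longer GENCODE transcript.
Irf1, chr11:53777631-53777659, plus strand: aagctgccatgTGGTGCTgaaaattgaat

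Irf7 (ENSMUSG00000025498, chromosome 7, 141262706 to 141266481, minus strand) separated the groups most sharply. The 3 untreated empty-vector libraries had 17093, 17173 and 17209 normalized counts (counts scaled by TMM, a correction for depth and composition). With TGF-β they had 12842, 13426 and 16175. The untreated Col1a1-miR-29b libraries had 22397, 22909 and 22947, and those given TGF-β had 19045, 19985 and 20341. The untreated CMV-miR-29b libraries, at 18346, 19151 and 20281, lay between the other plasmids, and their TGF-β-treated counterparts had 15021, 15414 and 15642. No library of a TGF-β group reached the lowest untreated library of the same plasmid, and no Col1a1-miR-29b library overlapped the empty-vector libraries of the same treatment. The immune marker sum was also highest in untreated Col1a1-miR-29b cells (12.9 to 13.4 FPKM in 2 libraries, against 11.3 to 12.0 under the empty vector), while with TGF-β the ranges overlapped, from 10.5 upward against 8.71 to 10.8 FPKM, and its part in the result was not tested. With TGF-β the immune marker sum was lower without overlap under the empty vector and under Col1a1-miR-29b, as was Irf7, whereas under CMV-miR-29b its ranges overlapped (10.5 to 12.7 without and 10.7 to 11.2 FPKM with TGF-β). Its part in the TGF-β result was not tested either.

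Irf7 was 1.33-fold higher in Col1a1-miR-29b than in empty-vector cells without TGF-β (log2 difference 0.41, SE 0.06, adjusted p = 0.00352, edgeR quasi-likelihood test with Benjamini-Hochberg adjustment over 21161 genes). With TGF-β it was 1.4-fold higher (log2 0.48, SE 0.06, edgeR adjusted p = 0.000582). TGF-β lowered Irf7 under the empty vector (log2 difference -0.28, SE 0.06, edgeR adjusted p = 0.0162) and under CMV-miR-29b (-0.33, SE 0.06, edgeR adjusted p = 0.00604). Under Col1a1-miR-29b the difference with TGF-β was -0.2 (95% confidence interval -0.34 to -0.06), which did not pass (edgeR adjusted p = 0.111) but did without TGF-β-treated empty-vector library d (0.00815). The TGF-β call under the empty vector was lost without the untreated empty-vector library e (adjusted p = 0.0525) and without TGF-β-treated empty-vector library c (0.0825) or e (0.0757).

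Irf7 under CMV-miR-29b differed from the empty vector by 0.17 (95% confidence interval 0.03 to 0.3) without TGF-β and by 0.12 (-0.02 to 0.26) with it, and neither passed (edgeR adjusted p = 0.83 and 0.492). Without the TGF-β-treated empty-vector library d, the highest of its group, the latter became 0.22 with an edgeR adjusted p of 0.0432. CMV-miR-29b and Col1a1-miR-29b cells differed directly by -0.37 with TGF-β (SE 0.06, edgeR adjusted p = 0.0139) and by -0.24 without it (-0.38 to -0.1, edgeR adjusted p = 0.0712), where without TGF-β-treated empty-vector library d the latter passed (0.00834). The call with TGF-β was lost without TGF-β-treated Col1a1-miR-29b library c (adjusted p = 0.0759) or d (0.0564), without TGF-β-treated CMV-miR-29b library d (0.0843), and without both unlettered libraries (0.0609). The 45-base overlap of Irf7 with Phrf1, on the opposite strand, could share reads, since it is not given whether counting used strand. Phrf1 passed in none of the 9 comparisons between groups (edgeR adjusted p at least 0.248). Its differences had the direction of those of Irf7 except between the untreated miR-29b vectors (0.08). With TGF-β it differed by -0.31 under CMV-miR-29b (edgeR unadjusted p = 0.0305) and by -0.17 under the empty vector. In treated Col1a1-miR-29b against empty-vector cells it differed by 0.18. The part of shared reads in the Irf7 result was not tested.

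**Figure D2:**
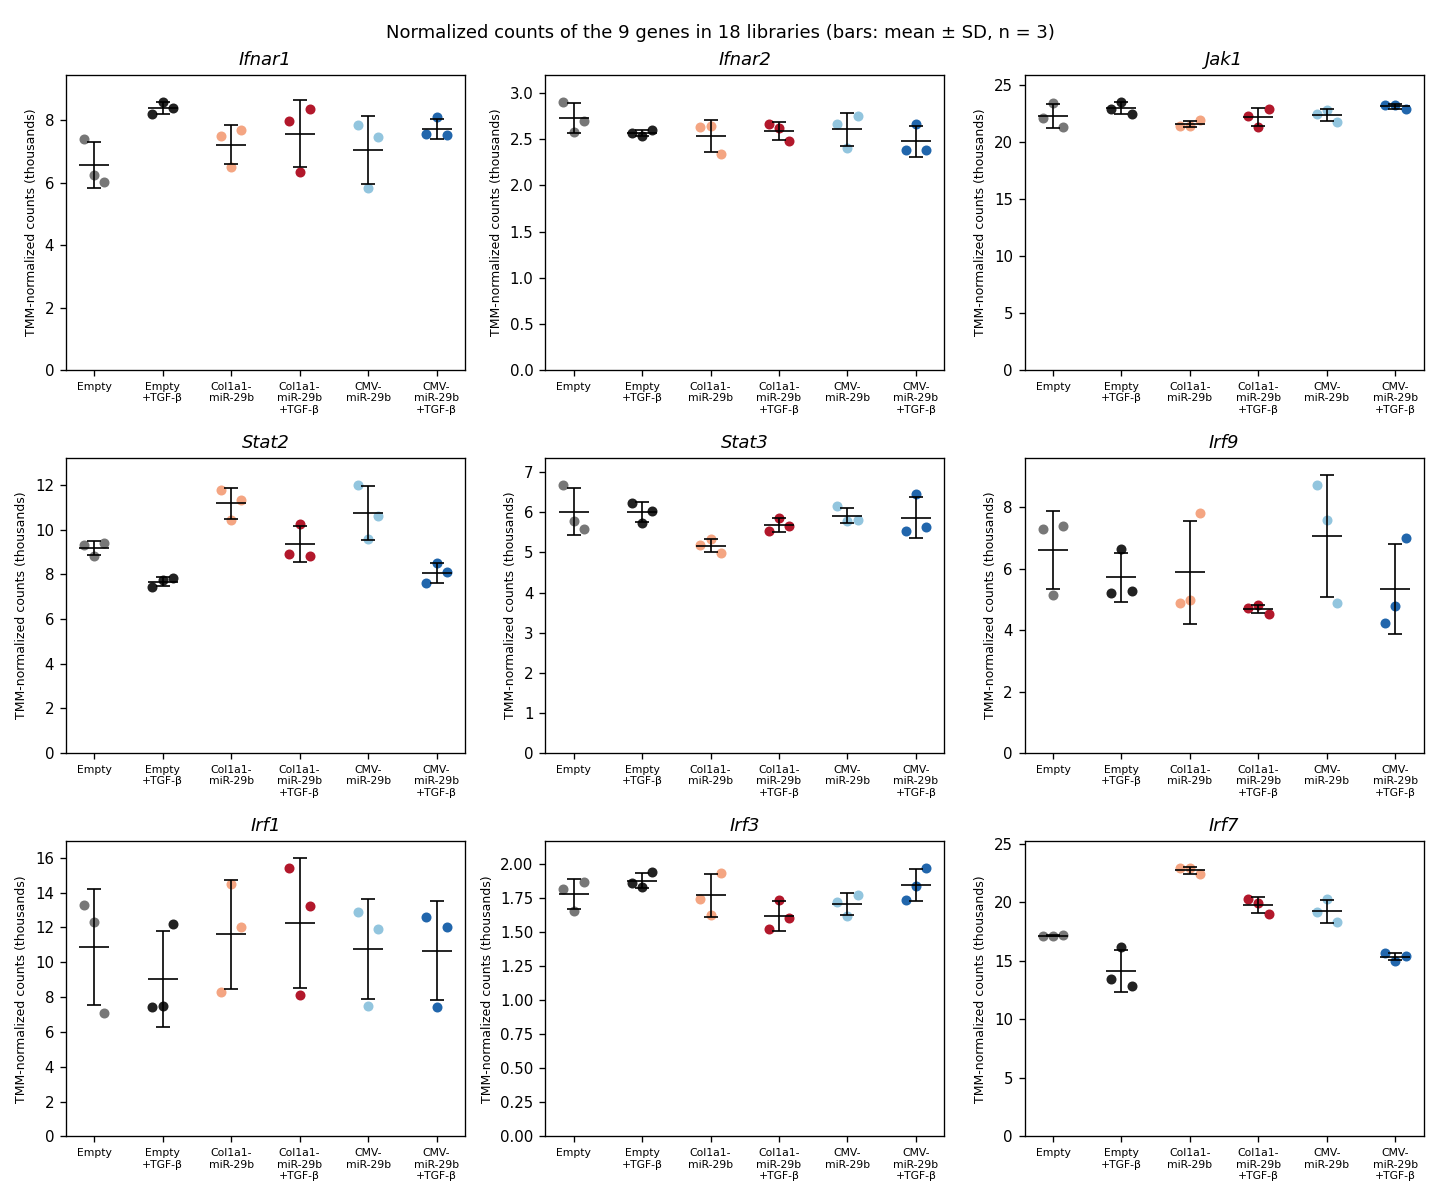
Each panel plots one gene's TMM-normalized counts, divided by 1000, in the 18 libraries by group, with bars for mean ± SD (n = 3). The Irf7 panel shows the Col1a1-miR-29b libraries (19045 to 22947) above all empty-vector libraries (12842 to 17209), while in the Irf1 and Irf9 panels single libraries of nearly every group stand apart.

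Stat2 (ENSMUSG00000040033, chromosome 10, 128270559 to 128292849, plus strand), the subunit that gives ISGF3 its activating domain, had the same order of untreated plasmids. Untreated empty-vector libraries had 8834, 9311 and 9403 normalized counts, and TGF-β-treated ones 7446, 7738 and 7839. The untreated Col1a1-miR-29b libraries had 10427, 11319 and 11784, and the treated ones 8836, 8932 and 10266. For CMV-miR-29b the untreated libraries had 9601, 10629 and 12006, and the treated ones 7607, 8126 and 8498. Under every plasmid the TGF-β and untreated libraries did not overlap. For 3 libraries against 3, the smallest p that exact ranks can give is 0.1. Absence of overlap alone is therefore weak, here and for the other members, and its share over all genes was not counted.

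Of the TGF-β comparisons, that under CMV-miR-29b passed for Stat2 (log2 difference -0.41, SE 0.08, 0.752-fold, edgeR adjusted p = 0.00399). Under the empty vector and under Col1a1-miR-29b the log2 difference was -0.26 in both (95% confidence interval -0.42 to -0.09 in both), with edgeR adjusted p of 0.0642 and 0.0811. Both passed without TGF-β-treated Col1a1-miR-29b library d (0.0435 and 0.0401) and without untreated CMV-miR-29b library c (0.0255 and 0.04), and the former also without untreated CMV-miR-29b library d (0.0298). Col1a1-miR-29b cells were 1.22-fold higher than empty-vector cells both without TGF-β (log2 0.28, SE 0.08, edgeR adjusted p = 0.0406) and with it (log2 0.28, SE 0.08, edgeR adjusted p = 0.0242). The call without TGF-β was not stable: it was kept in 3 of the 18 fits that left out 1 library and was lost, for example, without both unlettered libraries (adjusted p = 0.127). The call with TGF-β was lost without TGF-β-treated empty-vector library c (adjusted p = 0.106) or e (0.0629) and without TGF-β-treated Col1a1-miR-29b library d (0.124). Stat2 under CMV-miR-29b differed from the empty vector by 0.23 (0.06 to 0.39, edgeR adjusted p = 0.819) without TGF-β and by 0.07 (-0.09 to 0.24, 0.783) with it. The 2 miR-29b vectors differed by -0.06 (-0.22 to 0.11, edgeR adjusted p = 0.804) without TGF-β and by -0.21 (-0.37 to -0.05, 0.181) with it.

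**Figure D3:**
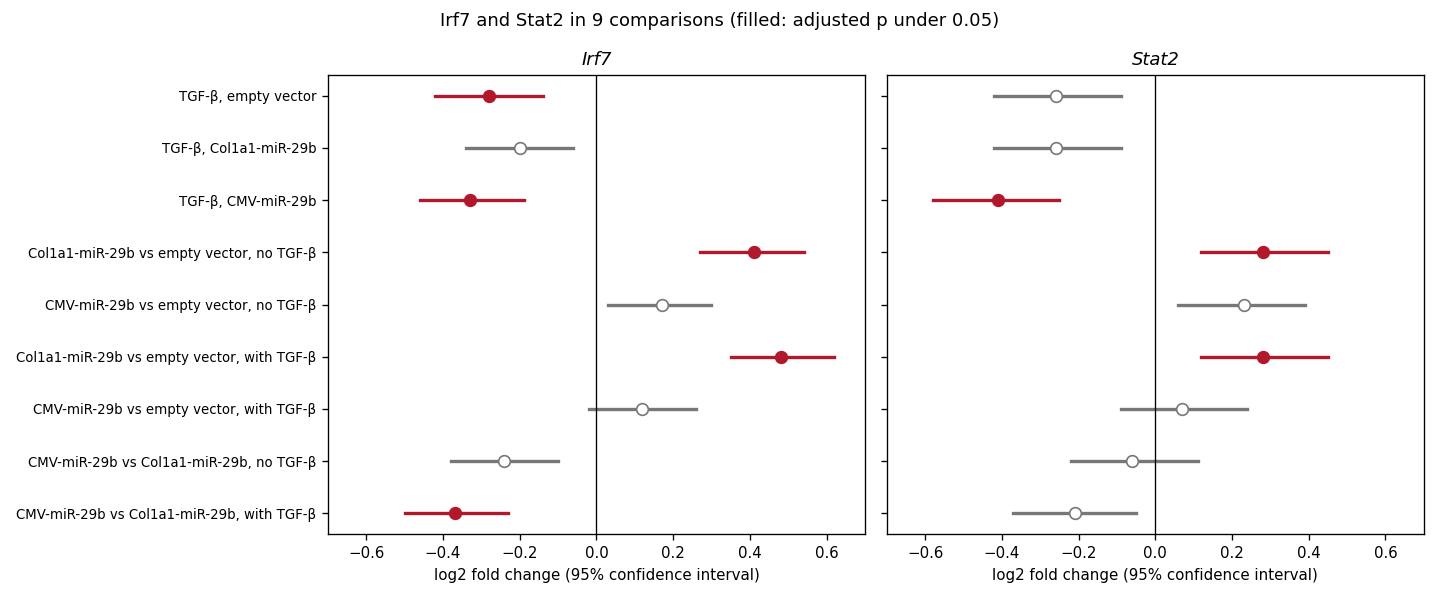
Points are log2 fold changes of Irf7 and Stat2 in 9 comparisons, with lines for 95% confidence intervals and filled marks for an edgeR adjusted p under 0.05. Irf7 passed in 5 comparisons and Stat2 in 3, higher with Col1a1-miR-29b and lower with TGF-β.

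The counts of members called are read against the share of all genes called in the same direction. With TGF-β under the empty vector 1 of 9 members was lower and 0 were higher, against 2.01% lower and 3.88% higher among all genes tested. Under Col1a1-miR-29b 0 of 9 passed in either direction (all genes 1.32% lower, 3.0% higher), with 2 at an unadjusted p under 0.05 in edgeR and 1 lower by DESeq2. Under CMV-miR-29b 2 of 9 were lower and 0 higher (1.87% and 3.08%). Col1a1-miR-29b against the empty vector gave 2 of 9 higher and 0 lower without TGF-β (2.57% and 3.7%) and again 2 higher and 0 lower with it (5.31% and 7.63%). CMV-miR-29b against the empty vector gave 0 of 9 both without TGF-β (0.00473% higher, 0.0% lower) and with it (0.00945% and 0.0%). At an unadjusted p under 0.05 in edgeR there were 2 and 0 members, and DESeq2 called 0 in both. CMV-miR-29b against Col1a1-miR-29b gave 0 of 9 without TGF-β (1.0% higher, 0.803% lower, with 2 at an unadjusted p under 0.05 in edgeR and 1 called by DESeq2) and 1 lower with it (1.02% and 0.912%). These comparisons share groups, so the counts are not independent of each other. The median log2 difference of the 9 lay between -0.09 and 0.03 over these comparisons, and that of all genes between -0.01 and 0.02.

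Whether the response to TGF-β differed between plasmids was tested as an interaction. In edgeR 0 genes passed (0.0% of all tested) for Col1a1-miR-29b minus the empty vector and 0 (0.0%) for CMV-miR-29b minus the empty vector, with 961 and 1129 at an unadjusted p under 0.05, where DESeq2 called 10 higher and 11 lower, and 8 higher and 11 lower. None of these was a member under either tool, and 0 members had an unadjusted p under 0.05 in edgeR. For Irf7 the difference of responses was 0.08 (95% confidence interval -0.12 to 0.27) and -0.05 (-0.24 to 0.15), respectively. For Stat2 it was 0.0 (-0.23 to 0.23) and -0.15 (-0.39 to 0.08).

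Of the receptor chains, Ifnar1 (ENSMUSG00000022967, chromosome 16, 91485238 to 91507441) had 6017, 6244 and 7392 normalized counts in untreated empty-vector libraries and 8197, 8395 and 8593 with TGF-β. These 2 groups did not overlap, but the log2 difference of 0.36 (95% confidence interval 0.11 to 0.6) missed the threshold in edgeR (adjusted p = 0.0928). DESeq2 gave an adjusted p of 0.0469. Under Col1a1-miR-29b and CMV-miR-29b the difference with TGF-β was 0.07 (-0.18 to 0.31) and 0.13 (-0.11 to 0.38). The second chain, Ifnar2 (ENSMUSG00000022971, chromosome 16, 91372783 to 91405589), lay between 2337 and 2908 normalized counts in all libraries. Its log2 differences ran from -0.1 to 0.04 over the 9 comparisons, the lowest in Col1a1-miR-29b against the empty vector without TGF-β (-0.26 to 0.05, edgeR adjusted p = 0.437).

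The kinase Jak1 (ENSMUSG00000028530, chromosome 4, 101152367 to 101265282) was the steadiest member. It lay between 21278 and 23526 normalized counts over all 18 libraries, and its largest log2 difference was 0.06 (-0.02 to 0.14, edgeR adjusted p = 0.5), for CMV-miR-29b against Col1a1-miR-29b with TGF-β. Its SD within groups was 0.0414 on the log2 scale, and 3.86% of the 9430 tested genes that averaged at least 1000 normalized counts had a lower one.

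Stat3 (ENSMUSG00000004040, chromosome 11, 100885098 to 100939540) was lowest in untreated Col1a1-miR-29b cells, at 4990, 5195 and 5326 normalized counts, against 5584, 5784 and 6683 under the empty vector. The 2 groups did not overlap, and the log2 difference of -0.22 (95% confidence interval -0.37 to -0.07) had an edgeR adjusted p of 0.0742, while DESeq2 gave 0.0231. With TGF-β the difference was -0.08 (-0.23 to 0.07) and the groups overlapped. Stat3 overlaps Stat5a, on the opposite strand, by 72 bases. Irf3 (ENSMUSG00000003184, chromosome 7, 44997648 to 45002848), the constitutive factor for interferon genes, had 1518, 1604 and 1736 normalized counts in TGF-β-treated Col1a1-miR-29b cells and 1831, 1857 and 1937 in TGF-β-treated empty-vector cells. That difference of -0.21 (-0.38 to -0.04) did not pass (edgeR adjusted p = 0.0974), and in the other comparisons Irf3 differed by at most 0.19. Irf3 overlaps Bcl2l12 on the opposite strand by 1065 bases.

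Irf1 and Irf9 differed more between libraries of one group than between groups. Irf1 (ENSMUSG00000018899, chromosome 11, 53770014 to 53777323) had 7 libraries between 7061 and 8283 normalized counts and 11 between 11892 and 15414, with none between. Every group held both levels. Untreated empty-vector libraries had 7061, 12299 and 13296, TGF-β-treated ones 7407, 7488 and 12201, and untreated Col1a1-miR-29b libraries 8283, 12029 and 14522. The step from the highest low library to the lowest high one was 1.44-fold, and 2.69% of the 9430 genes had a wider step with at least 4 libraries on each side. Its largest log2 difference, 0.44 for Col1a1-miR-29b against the empty vector with TGF-β, had a 95% confidence interval of -0.24 to 1.12 (edgeR adjusted p = 0.43), so a difference of this size was not detectable in Irf1.

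Irf9 (ENSMUSG00000002325, chromosome 14, 55603571 to 55610030) showed a similar picture, with 11 libraries between 4242 and 5283 normalized counts and 7 between 6657 and 8738. The step was 1.26-fold, and 4.85% of genes had a wider one. Both levels occurred in 5 of the 6 groups. All 3 libraries of TGF-β-treated Col1a1-miR-29b cells were low (4548, 4718 and 4812). The low libraries were not the same for both genes: 4 were low in both, 4 high in both, 7 high in Irf1 and low in Irf9, and 3 the reverse. The largest log2 difference of Irf9 was -0.4 with TGF-β under CMV-miR-29b (-0.9 to 0.09, edgeR adjusted p = 0.461). Within groups the SD on the log2 scale was 0.443 for Irf1 and 0.319 for Irf9, against a median of 0.0909 for those 9430 genes. Irf9 shares 123 bases with Rnf31 on the same strand, which had 1895 to 2690 counts, and Irf1 overlaps the antisense gene Gm17334, which had 8 to 43 counts. What sets the levels apart was not tested.

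**Figure D4:**
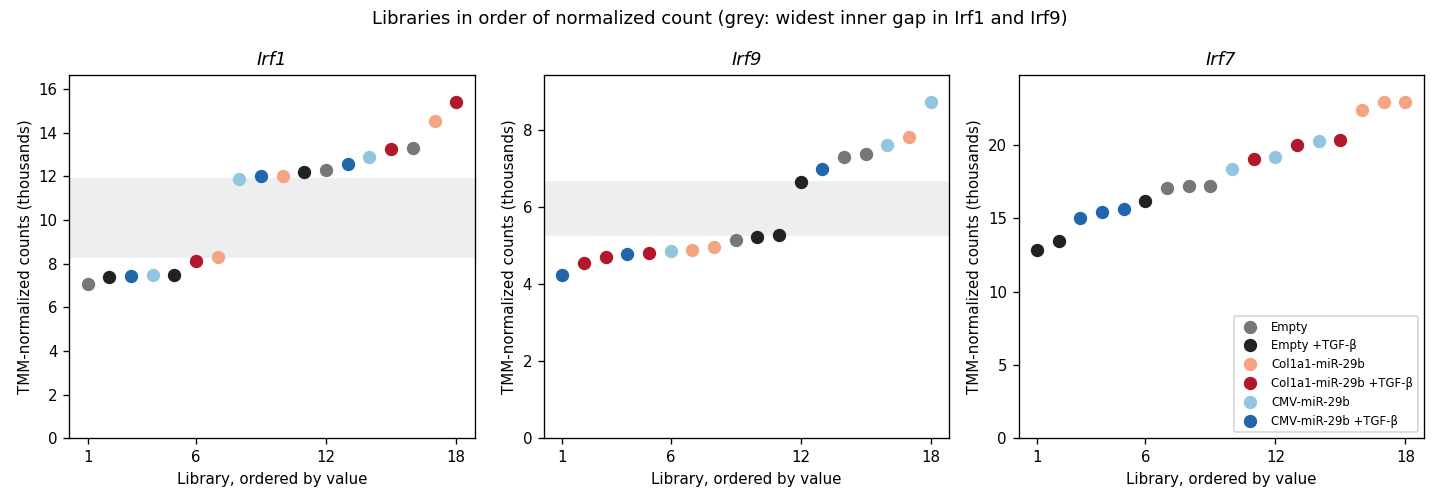
The 18 libraries are ordered by TMM-normalized count, divided by 1000, for Irf1, Irf9 and Irf7, coloured by group, with the grey band marking the step without libraries. Irf1 (7 low, 11 high) and Irf9 (11 low, 7 high) mix groups on both sides, whereas in Irf7 the 9 lowest are the empty-vector and TGF-β-treated CMV-miR-29b libraries.

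Genes with the most similar profile were sought by Pearson's r of log2 CPM over the 18 libraries among 13910 genes. Differences between groups enter this r, which is given as a description. The closest to Irf7 was Uba7, the enzyme that activates the ubiquitin-like ISG15 (r = 0.965), and to Stat2 it was Oas3, an antiviral oligoadenylate synthetase (r = 0.934). The closest to the other members reached 0.896 for Irf1 (Gm7160), 0.869 for Stat3 (Wdr25), 0.829 for Irf3 (Clcn4), 0.827 for Jak1 (Sesn2), 0.79 for Ifnar1 (2410002F23Rik), 0.788 for Ifnar2 (Rpp38) and 0.779 for Irf9 (Pfkl). Among the members themselves Irf7 and Stat2 were closest (r = 0.82), whereas Irf9, the partner of STAT2 in ISGF3, had an r of 0.29 with Stat2 and -0.13 with Irf1.

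Tyk2, the partner of Jak1 at the receptor, passed in none of the 9 comparisons. It differed by at most 0.16 (0.05 to 0.26, edgeR adjusted p = 0.119), higher for CMV-miR-29b than for Col1a1-miR-29b in untreated cells. Of the other IRF and STAT genes 8 were tested, and of the other receptors and kinases 7, Tyk2 included, and edgeR called 0 of either in the 9 comparisons. At most 3 and 1 of them had an unadjusted p under 0.05 in any 1 comparison, and DESeq2 called 1 of each list in a single comparison.

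The interferons themselves were close to absent from these libraries. Of 21 interferon genes in the table, 3 had enough counts to be tested and edgeR called 0 in the 9 comparisons (at most 1 at an unadjusted p under 0.05, and 0 by DESeq2). Ifnb1, the type I interferon typical of fibroblasts, had 0 to 18 counts per library, Ifna13 0 to 20 and Ifna4 0 to 8. Ifnz was the highest, with 41 to 120 counts. Ifng, which induces IRF1, had 0 counts in every library, where a count of 0 allows up to 3.

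Known targets of ISGF3 were tested as a list of 26 genes, all of which had enough counts. Between Col1a1-miR-29b and the empty vector without TGF-β, 13 were higher and 0 lower (all genes 2.57% higher), with a median log2 difference of 0.4 against 0.02 for all genes. Without the untreated empty-vector library c, 8 were called higher. With TGF-β 13 were higher and 1, Ifi27, lower (5.31% and 7.63%), with a median of 0.35 against 0.02. Ifit1, which binds foreign RNA, had 20556 ± 1960 normalized counts in TGF-β-treated Col1a1-miR-29b cells and 12240 ± 1676 in TGF-β-treated empty-vector cells (SD, n = 3 each, log2 0.75, SE 0.1, edgeR adjusted p = 0.000582). Between CMV-miR-29b and the empty vector edgeR called 0 of 26 in either treatment, with medians of 0.14 and -0.02. There 5 and 2 had an unadjusted p under 0.05, and DESeq2 called 0 and 1 higher (18 and 143 of 33429 genes).

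The same 26 genes were lower with TGF-β in 5 cases under the empty vector (all genes 2.01% lower, median -0.15), in 5 under Col1a1-miR-29b (1.32%, median -0.21) and in 12 under CMV-miR-29b (1.87%, median -0.25), and higher in 0. The count of 12 fell to 6 without untreated CMV-miR-29b library c, or treated library c or e, and to 7 without untreated library e. The count of 5 under Col1a1-miR-29b fell to 2 without both unlettered libraries. DESeq2 also called 0 higher. Rsad2, the antiviral protein viperin, fell with TGF-β under CMV-miR-29b from 8799 ± 2240 to 4812 ± 664 normalized counts (log2 -0.87, SE 0.16, edgeR adjusted p = 0.00362). CMV-miR-29b cells were lower than Col1a1-miR-29b cells for 6 targets without TGF-β (0.803% of all genes) and 8 with it (0.912%), and higher for 0 and 1 (Ifi27). DESeq2 called 8 and 16 lower (466 and 523 of 33429 genes), so the latter count depends on the tool. Mx1, a GTPase against influenza virus, had 668 ± 87.4 normalized counts in CMV-miR-29b and 1496 ± 290 in Col1a1-miR-29b cells with TGF-β (log2 -1.16, SE 0.19, edgeR adjusted p = 0.0109). The response of these targets to TGF-β was not shown to differ between plasmids, since the interaction called 0 of 26 for either vector (edgeR, with 0 and 3 at an unadjusted p under 0.05, and 0 by DESeq2).

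**Figure D5:**
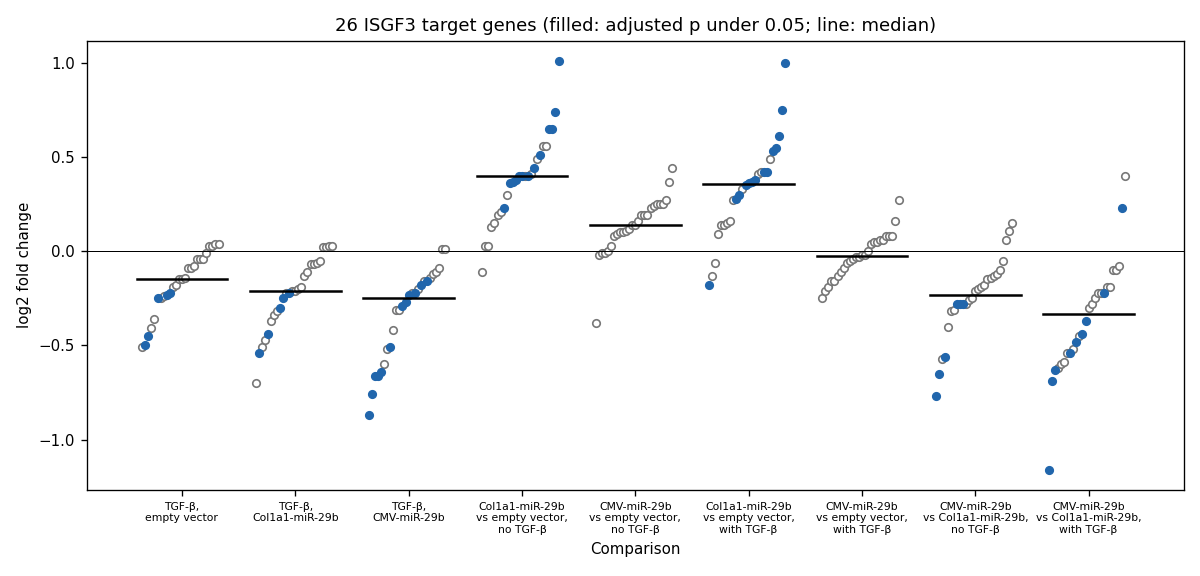
Each point is the log2 fold change of 1 of 26 ISGF3 target genes in one of 9 comparisons, filled for an edgeR adjusted p under 0.05, with a line at the median. The medians are 0.4 and 0.35 for Col1a1-miR-29b against the empty vector and -0.15 to -0.25 for TGF-β.

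Interferon-γ response genes, including IRF1 targets and antigen presentation genes, followed the same directions in a list of 16. Col1a1-miR-29b was higher than the empty vector in 7 without TGF-β and 8 with it (2.57% and 5.31% of all genes), and lower in 0 (edgeR, and 0 by DESeq2). TGF-β lowered 5, 3 and 5 under the empty vector, Col1a1-miR-29b and CMV-miR-29b (2.01%, 1.32% and 1.87% of all genes) and raised 0 (edgeR and DESeq2). Cxcl10, a chemokine for T cells, rose from 25759 ± 782 to 45994 ± 1105 normalized counts with Col1a1-miR-29b in the presence of TGF-β (log2 0.84, SE 0.05, edgeR adjusted p = 6.34e-07). Cd274, the checkpoint ligand PD-L1, rose from 941 ± 184 to 1594 ± 85 in the same comparison (log2 0.76, SE 0.12, edgeR adjusted p = 0.00114). Gbp2, an interferon-induced GTPase, fell with TGF-β under the empty vector from 4080 ± 182 to 2636 ± 185 (log2 -0.63, SE 0.06, edgeR adjusted p = 5.9e-06).

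Of 16 sensors and kinases upstream of IRF3 and IRF7, Col1a1-miR-29b was higher than the empty vector in 2 without TGF-β (2.57% of all genes) and in 3 with it (5.31%), where 1 was lower (7.63%). Dhx58, a regulator of RIG-I-like RNA sensors, had 4645 ± 510 normalized counts in TGF-β-treated Col1a1-miR-29b cells and 3243 ± 455 in TGF-β-treated empty-vector cells (log2 0.52, SE 0.1, edgeR adjusted p = 0.00445). TGF-β lowered 1, 0 and 2 of these 16 under the empty vector, Col1a1-miR-29b and CMV-miR-29b (2.01%, 1.32% and 1.87% of all genes). It raised 0 under each plasmid (edgeR). Tlr3, the receptor for double-stranded RNA, fell with TGF-β under CMV-miR-29b from 3981 ± 383 to 2407 ± 368 (log2 -0.73, SE 0.19, edgeR adjusted p = 0.0332). Ikbke, a kinase of IRF3 and IRF7, fell with TGF-β under the empty vector from 2437 ± 135 to 1868 ± 195 (log2 -0.38, SE 0.09, edgeR adjusted p = 0.0147).

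Among 16 genes listed as inhibitors of cytokine or IRF signaling, not all specific to interferon, TGF-β raised 3 and lowered 1 under each plasmid. Of all genes, 3.0% to 3.88% rose and 1.32% to 2.01% fell. Col1a1-miR-29b against the empty vector gave 2 higher and 1 lower without TGF-β (2.57% and 3.7% of all genes) and 3 higher and 3 lower with it (5.31% and 7.63%). Cish, a STAT5-induced inhibitor of cytokine receptors, rose with TGF-β under the empty vector from 464 ± 83.5 to 1175 ± 34.1 normalized counts (log2 1.34, SE 0.12, edgeR adjusted p = 3.36e-06). Irf2bpl, related to the IRF2-binding corepressors, rose from 1596 ± 124 to 3266 ± 320 (log2 1.03, SE 0.08, edgeR adjusted p = 8.58e-07). Socs1, an inhibitor of JAK kinases, was lower in untreated CMV-miR-29b than in untreated Col1a1-miR-29b cells, at 112 ± 8.54 against 185 ± 24 (log2 -0.73, SE 0.18, edgeR adjusted p = 0.0494).

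In the list of 15 IL-6 family receptors, cytokines and STAT3 targets, TGF-β raised 3 and lowered 1 under the empty vector (3.88% and 2.01% of all genes) and raised 2 and lowered 2 under Col1a1-miR-29b (3.0% and 1.32%). Under CMV-miR-29b it raised 5 and lowered 0 in edgeR (3.08% and 1.87%), with 1 lowered by DESeq2 (663 of 33429 genes). Under CMV-miR-29b, Il11, a fibroblast cytokine of that family, rose from 116 ± 7.26 to 276 ± 26.6 normalized counts (log2 1.25, SE 0.34, edgeR adjusted p = 0.0499). Il6ra, the IL-6 receptor, rose from 891 ± 126 to 1580 ± 63.2 (log2 0.83, SE 0.17, edgeR adjusted p = 0.00721). Pim1, a kinase induced by STAT3, rose from 999 ± 49.9 to 1687 ± 368 (log2 0.76, SE 0.12, edgeR adjusted p = 0.00116). Stat3 itself differed by -0.01 (95% confidence interval -0.16 to 0.13) in that comparison.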

How the data were processed

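Poly(A) RNA libraries (stranded TruSeq kit) of 18 MEF samples were analysed. The authors trimmed reads with cutadapt, aligned them with HISAT2 and assembled them with StringTie, and the study's methods name a mouse genome of an Ensembl release without its build, while the submitters' processing notes list mm9. Gene coordinates in the table equalled GENCODE vM21 (GRCm38) for 52506 of 55450 genes and 8 of the 9 members (Irf1 differed). How counts were taken is not given in the sources used here. The deposited counts per gene are whole numbers, not normalized. The deposited FPKM, normalized by the authors for length and depth, write 0.0001 in place of 0. One column per Col1a1-miR-29b group names no sample title, so its counts entered as a library of that group and 2 FPKM columns were not used. Of counts from 1 to 49, 34.5% were multiples of 4, against 24.9% of counts of 500 or more.

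Counts were tested with edgeR 4.0.16 (R 4.3.3; filterByExpr, TMM, glmQLFit and glmQLFTest, one mean per group over 18 libraries, 12 residual degrees of freedom), with Benjamini-Hochberg adjustment over 21161 genes, a threshold of 0.05 and 95% confidence intervals. The scripts were first tested on simulated data. Alternatives used DESeq2 1.42.0, limma 3.58.1 on log2(FPKM + 1) and log2(FPKM + 0.1), other filters and scalings, and fits without single libraries. Totals of 65898017 to 80332633 counts leave counting error small for the members, so the spread between 3 libraries limits precision.

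All 9 members are named. Of each pathway list, up to 3 genes with the largest difference among those called in any of the 9 comparisons are named in that comparison, with Tyk2 always named, and the closest gene to each member by Pearson's r. Genes named beyond this rule (Ifi27, the interferons, overlapping genes and markers) were chosen after their values were seen. Similarity was computed over genes averaging at least 1 CPM. The members and lists were chosen with earlier results of these data known. Some genes covered by these rules are not reported here.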

Additional observations from a re-analysis of the deposited data

How the results depend on the processing

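Each comparison was refitted under 12 other settings, one of them (without both unlettered libraries) chosen after seeing the data, and without each of the 18 libraries. No called difference of Irf7 or Stat2 changed direction, and the cause of changed calls was not tested. Irf7 in Col1a1-miR-29b against the empty vector passed in all of these fits with TGF-β, and without TGF-β in all but limma on log2(FPKM + 1) with no filter (0.44). That setting also lost Irf7 with TGF-β under the empty vector (-0.31) and CMV-miR-29b (-0.32), Irf7 between the miR-29b vectors with TGF-β (-0.39), and Stat2 in Col1a1-miR-29b against the empty vector (0.29 without and 0.34 with TGF-β). Fitting the compared groups alone lost Irf7 with TGF-β under the empty vector (-0.28), Stat2 with TGF-β under CMV-miR-29b (-0.42) and Stat2 in Col1a1-miR-29b against the empty vector with TGF-β (0.27). Irf7 between the miR-29b vectors with TGF-β also missed by limma with a pseudocount of 1 (-0.39) and 0.1 (-0.4) and without both unlettered libraries (-0.39). Stat2 in untreated Col1a1-miR-29b against the empty vector was lost with DESeq2 size factors (0.27), with every gene of at least 1 count (0.28), by limma (0.29 and 0.3) and without both unlettered libraries (0.27).

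Replicate letters did not pair libraries (mean r of deviations 0.0143 over 36 same-letter pairs, -0.00764 over 70 others). Both unlettered libraries were left out of the fit with the letter as a replicate block, so blocking and their absence cannot be told apart. In that fit, Irf7 between the miR-29b vectors with TGF-β was -0.36 (edgeR adjusted p = 0.111). Stat2 in Col1a1-miR-29b against the empty vector was 0.28 without (0.181) and 0.33 with TGF-β (0.0791). With these libraries left out but no block, the same Irf7 difference was -0.39 (edgeR adjusted p = 0.0609). The untreated Stat2 difference was then 0.27 (0.127), while Stat2 with TGF-β still passed. The block fit left 1, 1 and 0 members called in untreated and treated Col1a1-miR-29b against the empty vector and between the treated miR-29b vectors. Of 21858 genes it called 63 higher and 98 lower, 387 and 765, and 3 and 10 there.

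Of the 9 members, TGF-β under the empty vector changed 3 by DESeq2, 2 with total counts only, with at least 10 counts in every library, by filtered limma with either pseudocount and with counts divided by 4, and 0 by limma with no filter. Among all genes, DESeq2 called 1024 higher and 729 lower of 33429, and total counts only gave 672 and 593 of 21161. The filter of 10 counts gave 794 and 544 of 15805, and counts divided by 4 gave 844 and 544 of 16356. Limma gave 605 and 552 (pseudocount 1) or 601 and 546 (0.1) of 18861, and 484 and 347 of 55450 with no filter. Under Col1a1-miR-29b 1 passed by DESeq2, with total counts only and with the groups alone, and under CMV-miR-29b 1 with the groups alone and by limma with no filter. Of all genes, these settings called 865 higher and 452 lower of 33429, 537 and 357 of 21161, and 523 and 196 of 19202 under Col1a1-miR-29b. Under CMV-miR-29b they called 361 and 166 of 19074, and 463 and 235 of 55450. Untreated Col1a1-miR-29b against the empty vector gave 1 with DESeq2 size factors, with at least 1 count in any library, by filtered limma and without both unlettered libraries, and 0 by limma with no filter, and with TGF-β 1 with the groups alone and by limma with no filter. Untreated, DESeq2 size factors called 487 genes higher and 904 lower of 21161, and the filter of at least 1 count 329 and 592 of 33471. Limma called 327 and 203 (pseudocount 1) or 267 and 182 (0.1) of 18861, and 136 and 108 of 55450 with no filter. With TGF-β the groups alone gave 315 and 757 of 19053, and limma with no filter 456 and 423 of 55450. Between the miR-29b vectors DESeq2 called 1 without TGF-β, and 0 passed with TGF-β by any limma fit or without both unlettered libraries. There DESeq2 called 760 genes higher and 466 lower of 33429 without TGF-β. With it limma called 25 and 61 (pseudocount 1) or 26 and 51 (0.1) of 18861, and 25 and 55 of 55450 with no filter. The member counts are read beside these numbers of all genes.

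Leaving out 1 library gave 0 to 2 members for TGF-β under the empty vector, 0 to 1 under Col1a1-miR-29b, 1 to 2 for Col1a1-miR-29b against the empty vector in either treatment, and 0 to 1 for treated CMV-miR-29b against the empty vector and between the miR-29b vectors in either treatment. All genes called in these fits, in the same order, numbered 725 to 1428, 630 to 959, and 468 to 1706 (untreated) and 1291 to 3182 (treated). The last comparisons gave 2 to 160 genes, and 61 to 646 (untreated) and 40 to 504 (treated). The log2 differences ran from -0.4 to -0.23 (Irf7, TGF-β, empty vector), -0.39 to -0.34 (Irf7 between the treated miR-29b vectors), 0.24 to 0.31 and 0.21 to 0.32 (Stat2, Col1a1-miR-29b against the empty vector, untreated and treated). Uncalled values near 0 changed sign: Stat2 between the untreated miR-29b vectors ran from -0.14 to 0.02, the interaction of Irf7 for CMV-miR-29b from -0.11 to 0.06, and that of Stat2 for Col1a1-miR-29b from -0.06 to 0.04, which was -0.0 with at least 1 count in any library.

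The number of genes called moved more. Over the 12 settings it was 161 to 2336 for untreated and 879 to 3491 for treated Col1a1-miR-29b against the empty vector, 0 to 37 and 1 to 294 for CMV-miR-29b, 18 to 1226 and 13 to 1108 between the miR-29b vectors, and 618 to 1753, 394 to 1317 and 527 to 1514 for TGF-β under the empty vector, Col1a1-miR-29b and CMV-miR-29b. ISGF3 targets called higher in untreated Col1a1-miR-29b cells numbered 6 to 16 and in treated ones 9 to 14, and those lower with TGF-β 4 to 16 under CMV-miR-29b and 0 to 7 under Col1a1-miR-29b, the replicate block without the unlettered libraries giving 6 and 0. With 3 libraries a group, the spread of Irf1 and Irf9 limits what can be detected in them.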
